A study of Mus musculus with 12 samples.

Results

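The cytosolic nucleic acid sensors described here are 9 genes of the 38215 in the gene count table, chosen by name for what their products do. They are Ddx58 (RIG-I), Ifih1 (MDA5), Dhx58 (LGP2), Mavs, Tmem173 (STING), Zbp1, Eif2ak2 (PKR), Trex1 and Samhd1. RNA came from RAW264.7, an established line of mouse macrophages, in 4 groups of 3 samples, where cells had received either a non-targeting control siRNA or an siRNA against SF3a1 and were then left without LPS or given it. SF3a1 is a subunit of the splicing factor SF3a in the U2 small nuclear ribonucleoprotein, and the siRNA was delivered by nucleofection 24 hours before 20 ng/ml LPS was added for 4 hours. The values are from polyadenylated RNA sequenced from one end, with between 12746019 and 41091887 reads counted on genes per library. Each group of 3 holds repeats of the same treatment, so p-values measure the spread between repeated treatments of a single cell line.

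Cells sense viral RNA in the cytosol with the helicases RIG-I and MDA5, which signal through MAVS on mitochondria, and sense DNA with cGAS, whose second messenger activates STING. Both routes activate the kinase TBK1 and the transcription factor IRF3, which turn on type I interferon, and interferon then raises many of the sensors through its receptor. In macrophages LPS reaches the same interferon loop from TLR4, which makes these genes known late targets of the LPS response. TREX1 and SAMHD1 remove DNA and deoxynucleotides and hold the DNA route in check.

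All 6 macrophage markers examined passed the filter on low counts, and their summed level lay between 9070 and 13300 CPM over the 12 libraries (CPM, reads of a gene scaled to a common library size after TMM normalization). Lyz2 was the most abundant, with a mean of 6690 CPM. Their sum averaged 9620 ± 617 CPM (SD, n = 3) with control siRNA, 9690 ± 276 with control siRNA and LPS, 12100 ± 733 with SF3a1 siRNA and 11200 ± 1800 with SF3a1 siRNA and LPS, and most of it was Lyz2. Single markers moved. With control siRNA, LPS lowered Csf1r (log2 fold change -1.04) and raised Mpeg1 (1.30), Itgam (1.61) and Adgre1 (0.89), and with SF3a1 siRNA it lowered Csf1r (-0.55). The Itgam value leaned on replicate 1, with 20945, 2161 and 2816 counts in replicates 1, 2 and 3 of control siRNA and LPS. Those libraries held 41091887, 13021502 and 18437310 reads on genes. SF3a1 siRNA raised Lyz2 without LPS (0.47), and with LPS it lowered Mpeg1 (-1.29, edgeR adjusted p = 6.62e-04) and Adgre1 (-0.71) and raised Csf1r (0.69). The part of these changes in the results was not tested. Markers of other cells were near 0. The highest summed level in any library was 0.144 CPM for the T cell genes Cd3d and Cd3e, 0.223 CPM for Col1a1 and Col3a1 of fibroblasts, 0.0789 CPM for Epcam and Krt18 of epithelium and 1.83 CPM for Cdh5 and Kdr of endothelium. The endothelial sum averaged 0.162 CPM with control siRNA without LPS, 1.32 CPM with LPS and 0.0724 CPM with SF3a1 siRNA and LPS, so it was high in the group where the sensors were high. The dendritic cell genes Flt3 and Zbtb46 together reached 2.74 CPM, and Zbtb46 fell with LPS and control siRNA (-1.13, edgeR adjusted p = 0.0659) and rose with SF3a1 siRNA in LPS (1.14, edgeR adjusted p = 0.0585). Their part in the results was not tested.

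Sf3a1 itself checked the labels. It measured 173, 216 and 185 CPM with control siRNA without LPS and 27.1, 27.5 and 32.1 CPM with SF3a1 siRNA. With LPS it measured 150, 194 and 157 CPM with control siRNA and 30.3, 26.7 and 45.0 CPM with SF3a1 siRNA. The knockdown left 15.1% of the control level without LPS (log2 fold change -2.73, standard error 0.204, edgeR adjusted p = 1.14e-05) and 20.4% with LPS (log2 fold change -2.30, standard error 0.2, adjusted p = 1.47e-05).

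LPS raised most of the sensors, and SF3a1 siRNA lowered most of them once LPS was present. In these bulk samples fewer responding cells and less RNA per cell cannot be told apart. A gene was called at an adjusted p of 0.1 or less in edgeR's quasi-likelihood fit, adjusted by Benjamini-Hochberg over the 14983 genes tested. Trex1 was listed at 0 in every library and was not tested at the gene level, so counts refer to 8 genes. With control siRNA, LPS raised 6 of the 8 (Ddx58, Ifih1, Dhx58, Zbp1, Eif2ak2 and Samhd1), against 13.8% of all genes tested, and lowered 0, against 18.3%. With SF3a1 siRNA, LPS raised 5 of the 8, the same genes without Samhd1, where 6.6% of all genes rose and 4.06% fell. SF3a1 siRNA without LPS lowered 2 of the 8 (Dhx58 and Tmem173), with 20.1% of all genes lower and 13.7% higher. SF3a1 siRNA with LPS lowered 7 of the 8, all but Mavs, with 20.4% of all genes lower and 18.4% higher. The median log2 fold change of the 8 genes was 3.94, 2.62, -0.49 and -1.59 in these 4 comparisons, where that of all genes tested was -0.02, 0.01, -0.02 and -0.04. Comparisons that share a group share its 3 libraries.

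**Figure D1:**
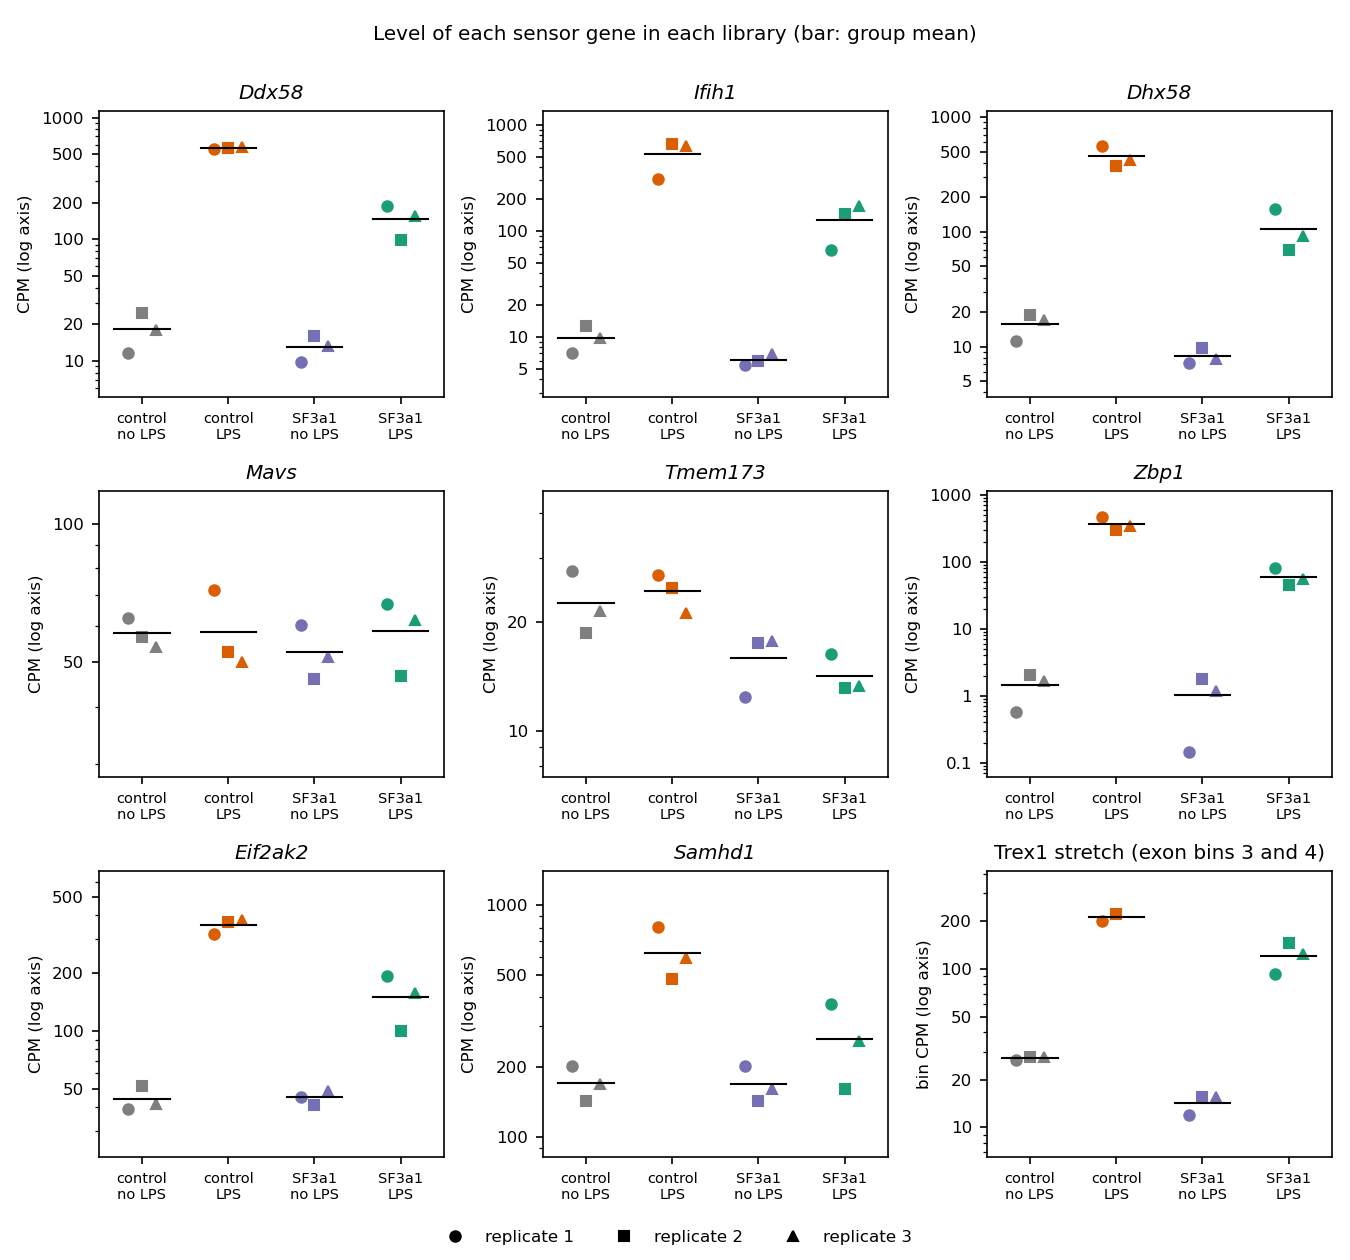
Level of each sensor gene in each of the 12 libraries on a log axis, as CPM after TMM scaling, with the group mean as a bar. The last panel gives exon bins 3 and 4 of the joined Trex1 and Atrip unit as CPM of bin counts in the 11 libraries with exon counts. Ddx58, Ifih1, Dhx58 and Zbp1 rise by more than an order of magnitude with LPS, while Mavs overlaps between all groups.

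Levels of different genes were compared per kilobase of annotated exon. With control siRNA and no LPS, Samhd1 (18.7 ± 3.22 CPM per kb, SD, n = 3) and Mavs (17.3 ± 1.30) stood highest and overlapped, followed by Eif2ak2 (8.63 ± 1.25) and Tmem173 (8.24 ± 1.66), which also overlapped. Dhx58 (4.81 ± 1.23) and Ddx58 (2.57 ± 0.941) came next and overlapped, and Ifih1 (1.21 ± 0.356) and Zbp1 (0.405 ± 0.218) were each below every library of the gene above. With LPS the order turned: Dhx58 (139 ± 29.9) and Zbp1 (105 ± 25.3) stood highest and overlapped, Ddx58 (80.1 ± 1.39) was below both, Eif2ak2 (69.7 ± 6.11), Samhd1 (68.3 ± 17.9) and Ifih1 (65.1 ± 24.1) overlapped, and Mavs (17.4 ± 3.57) and Tmem173 (8.88 ± 1.07) were lowest. With SF3a1 siRNA and LPS the inducible genes were all lower and ran from Dhx58 at 32.3 ± 13.9 to Ifih1 at 15.5 ± 6.54 CPM per kb, with each of the first 6 in the order overlapping the next, and Mavs at 17.5 ± 3.13 stood among them. Tmem173 was below the other 7 there, at 5.19 ± 0.648 CPM per kb.

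Ddx58 (ENSMUSG00000040296, chr4:40203773-40239828, reverse strand, mm10) encodes RIG-I, which binds short RNA with a 5′ triphosphate. Ifih1 (ENSMUSG00000026896, chr2:62595798-62646255, reverse strand) encodes MDA5, which binds long double-stranded RNA. Dhx58 (ENSMUSG00000017830, chr11:100694884-100704271, reverse strand) encodes LGP2, a relative without signalling domains that modulates both, and it overlaps the antisense gene Dhx58os, so reads of the pair may be mixed. Promoter windows from 250 bases before to 50 bases after the annotated start, from RefSeq (GRCm38.p6), were at hand for 6 of the 9 genes, and the interferon-stimulated response element core GAAANNGAAA, searched on both strands, was in 3.44% of the 32851 windows. Of the members it was in the windows of Ddx58, Ifih1 and Eif2ak2 and in none of those of Mavs, Trex1 and Samhd1. These are shown because all 3 of those genes rose with LPS. Of the genes without the core, Samhd1 rose 3.64-fold with LPS and control siRNA, Mavs was not called and Trex1 was not tested as a gene. Dhx58 and Zbp1 also rose but had no window. A link between the core and the rise was not tested. The match (capitals) started at base 3 after the start in Ddx58, on the opposite strand, at base 33 in Ifih1 and at base 19 in Eif2ak2, and the sequences run 5′ to 3′ along the gene:
Ddx58 (chr4:40239804-40239833): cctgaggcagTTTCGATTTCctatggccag
Ifih1 (chr2:62646206-62646235): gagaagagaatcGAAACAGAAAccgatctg
Eif2ak2 (chr17:78882535-78882564): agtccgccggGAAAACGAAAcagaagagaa
A κB motif (GGGNNTTTCC, in 1.63% of windows) was found in none of the 6, and a gamma-activated site motif (TTCNNNGAA, in 8.3% of windows) was found once each in Eif2ak2 and Samhd1.

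Ddx58 measured 11.5, 24.8 and 18.0 CPM with control siRNA without LPS and 556, 565 and 575 CPM with LPS. Under SF3a1 siRNA it measured 9.84, 16.1 and 13.2 CPM without LPS and 189, 98.7 and 154 CPM with LPS. The groups without LPS overlapped, and with LPS every SF3a1 library was below every control library. LPS raised Ddx58 by 4.97 on the log2 scale with control siRNA (standard error 0.327, adjusted p = 2.75e-07), a 31.3-fold change, and by 3.50 with SF3a1 siRNA (standard error 0.309, adjusted p = 1.23e-05), an 11.3-fold change. SF3a1 siRNA left 26.1% of the control level with LPS (log2 fold change -1.94, standard error 0.286, adjusted p = 3.44e-04). Without LPS the log2 fold change was -0.47 and did not pass the test (adjusted p = 0.259).

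Ifih1 measured 7.02, 12.8 and 9.84 CPM with control siRNA without LPS and 306, 661 and 629 CPM with LPS. With SF3a1 siRNA it measured 5.51, 5.91 and 6.99 CPM without LPS and 66.7, 143 and 170 CPM with LPS. In both siRNA groups with LPS, replicate 1 was the low library. LPS raised Ifih1 54-fold with control siRNA (log2 fold change 5.76, standard error 0.425, adjusted p = 7.46e-07) and 20.7-fold with SF3a1 siRNA (4.37, standard error 0.405, adjusted p = 1.80e-05). With LPS, the ratio of SF3a1 to control siRNA was 0.218, 0.216 and 0.270 in replicates 1, 2 and 3 (log2 fold change -2.07, standard error 0.357, adjusted p = 9.46e-04). Without LPS the log2 fold change was -0.69, with every SF3a1 library below every control library, and it passed the test only with the replicate number as a block (adjusted p = 0.201 without and 0.0257 with the block).

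Dhx58 measured 11.2, 18.9 and 17.0 CPM with control siRNA without LPS and 564, 377 and 421 CPM with LPS. Under SF3a1 siRNA it measured 7.22, 9.70 and 7.81 CPM without LPS and 157, 68.8 and 91.6 CPM with LPS. LPS raised it 28.9-fold with control siRNA (log2 fold change 4.86, adjusted p = 3.94e-07) and 12.8-fold with SF3a1 siRNA (3.68, adjusted p = 1.12e-05). In the main fit Dhx58 was the only one of the RIG-I-like receptor genes called with SF3a1 siRNA in both conditions. With the replicate number as a block Ifih1 was called in both as well. The log2 fold change of Dhx58 was -0.93 without LPS (standard error 0.300, adjusted p = 0.0364) and -2.10 with LPS (standard error 0.294, adjusted p = 2.43e-04). The call of Dhx58 without LPS was lost on leaving out replicate 2 or 3 of control siRNA or replicate 1 or 3 of SF3a1 siRNA (adjusted p up to 0.168).

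Mavs and Tmem173, the adaptors of the RNA and the DNA route, were not called with LPS. Mavs (ENSMUSG00000037523, chr2:131234063-131248025, forward strand) measured 62.5, 56.8 and 54.0 CPM in control siRNA cells without LPS, 71.9, 52.6 and 50 after LPS, 60.2, 46.0 and 51.4 with SF3a1 siRNA without LPS and 66.8, 46.7 and 61.9 with both. The 4 groups overlapped, and the log2 fold change lay between -0.14 and 0.16 in the 4 comparisons (adjusted p from 0.640 to 0.983). Tmem173 (ENSMUSG00000024349, chromosome 18) measured 27.6, 18.7 and 21.5 CPM with control siRNA without LPS and 27, 24.9 and 21.2 CPM with LPS. With SF3a1 siRNA it measured 12.4, 17.5 and 17.7 CPM without LPS and 16.3, 13.1 and 13.3 CPM with LPS, so that all 6 SF3a1 libraries were below all 6 control libraries. SF3a1 siRNA left 58.4% of the Tmem173 level with LPS (log2 fold change -0.78, standard error 0.201, adjusted p = 0.0112). Without LPS the log2 fold change was -0.52 (adjusted p = 0.0770), a call that was lost with RLE scaling and on leaving out any of the 6 libraries compared.

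Zbp1 (ENSMUSG00000027514, chr2:173206612-173218923, reverse strand) encodes a sensor of left-handed nucleic acid that can set off necroptosis through RIPK3. It showed the largest change of the 8. It measured 0.573, 2.06 and 1.66 CPM with control siRNA without LPS and 470, 298 and 344 CPM with LPS. Under SF3a1 siRNA it measured 0.146, 1.78 and 1.19 CPM without LPS and 79.8, 44.9 and 54.3 CPM with LPS. LPS raised it by 8.09 on the log2 scale with control siRNA (standard error 0.629, adjusted p = 1.18e-06) and by 5.96 with SF3a1 siRNA (standard error 0.610, adjusted p = 4.04e-05). The latter moved to 5.30 without replicate 1 and to 6.78 without replicate 2 of SF3a1 siRNA without LPS, and without all replicate 1 libraries the changes were 7.43 and 5.03. With LPS, the ratio of SF3a1 to control siRNA was 0.170, 0.151 and 0.158 in replicates 1, 2 and 3 (log2 fold change -2.63, standard error 0.474, adjusted p = 0.00124). Without LPS the groups overlapped at these low levels (log2 fold change -0.50, adjusted p = 0.629).

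Eif2ak2 (ENSMUSG00000024079, chr17:78852564-78882573, reverse strand) encodes PKR, which binds double-stranded RNA and phosphorylates the translation factor eIF2α. An rRNA gene, n-R5s29, and the lincRNA gene Gm26637 overlap it on the other strand. It measured 39.3, 51.4 and 41.7 CPM with control siRNA without LPS and 321, 368 and 380 CPM with LPS. With SF3a1 siRNA it measured 45.4, 41.2 and 48.4 CPM without LPS and 194, 99.9 and 158 CPM with LPS. The groups without LPS overlapped (log2 fold change 0.03, adjusted p = 0.945), and with LPS every SF3a1 library was below every control library (log2 fold change -1.24, standard error 0.209, adjusted p = 8.09e-04). LPS raised Eif2ak2 8.08-fold with control siRNA (log2 fold change 3.01, adjusted p = 7.46e-07) and 3.36-fold with SF3a1 siRNA (1.75, adjusted p = 1.75e-04).

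Samhd1 (ENSMUSG00000027639, chr2:157097533-157135265, reverse strand) encodes a deoxynucleotide triphosphohydrolase. It measured 202, 143 and 170 CPM with control siRNA without LPS and 803, 479 and 594 CPM with LPS. Under SF3a1 siRNA it measured 202, 143 and 161 CPM without LPS, close to the control values number by number, and 376, 162 and 259 CPM with LPS. LPS raised it 3.64-fold with control siRNA (log2 fold change 1.87, standard error 0.287, adjusted p = 3.60e-04). With SF3a1 siRNA the groups with and without LPS overlapped, and the log2 fold change was 0.66 (adjusted p = 0.213, and 0.0085 with the replicate number as a block). SF3a1 siRNA with LPS left 42.5% of the control level (log2 fold change -1.23, standard error 0.282, adjusted p = 0.00540), and without LPS the log2 fold change was -0.03 (adjusted p = 0.963, turning to 0.04 with RLE scaling).

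**Figure D2:**
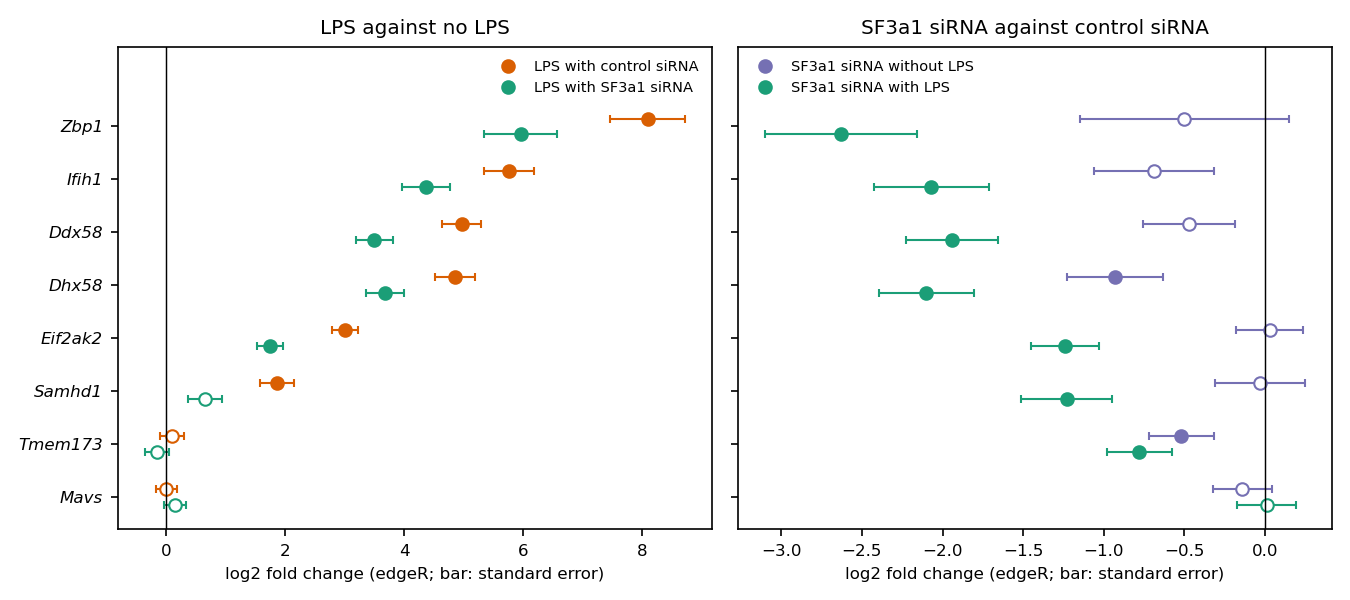
Log2 fold change of each of the 8 tested sensor genes (points) with its standard error (bars), from edgeR's quasi-likelihood fit. The left panel gives LPS against no LPS for each siRNA and the right panel SF3a1 against control siRNA for each condition. Filled points are called, and Zbp1 lies at both ends of the range, at 8.09 with LPS and at -2.63 with SF3a1 siRNA and LPS.

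Whether SF3a1 siRNA acted differently with and without LPS was tested as an interaction. It was called for 2 of the 8 genes, both lower, against 1.94% of all genes lower and 1.54% higher: Eif2ak2 (log2 difference -1.27, standard error 0.294, adjusted p = 0.0462) and Ddx58 (-1.47, standard error 0.400, adjusted p = 0.0913). Zbp1 (-2.13, adjusted p = 0.248, and -2.79 to -1.32 on leaving out single libraries), Ifih1 (-1.39, adjusted p = 0.226), Samhd1 (-1.21, adjusted p = 0.161) and Dhx58 (-1.17, adjusted p = 0.203) had differences of similar size and did not pass the test. With the replicate number as a block, 5 of the 8 were called, adding Ifih1 (adjusted p = 0.00669), Samhd1 (0.00217) and Dhx58 (0.0964), against 5.18% of all genes lower under that fit. The Ddx58 call was lost on leaving out 9 of the 12 libraries in turn (adjusted p up to 0.232) and the Eif2ak2 call on leaving out replicate 3 of control siRNA with LPS or of SF3a1 siRNA without LPS (up to 0.128). Without the 4 replicate 1 libraries, which were the deepest and were sequenced in 2 runs, 6 of the 8 were called, with 3.09% of all genes lower and 3.73% higher.

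Trex1 (ENSMUSG00000049734, chr9:109057933-109059734, reverse strand) encodes the main cytosolic DNA exonuclease of mammalian cells. In the annotation (GENCODE vM21) it lies inside Atrip, a gene of the DNA damage checkpoint on the same strand (chr9:109057933-109074124), and each base of its exons is also in an exon of an Atrip transcript. htseq-count leaves a read on exons of more than 1 gene out of the gene totals, so the 0 reads for Trex1 in all 12 libraries are not a measure of its expression. The exon bin files join the pair into 1 unit of 37 bins, numbered from the low coordinate, which is the 3′ end. The rebuilt annotation has 41 bins for the unit, so positions were not assigned to single bins, but in it bins 3 and 4 (532 and 459 nt) are exon of Trex1 and of Atrip transcripts and hold most of the Trex1 exon length.

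Bins 3 and 4 together took 47.1, 53.7 and 56.2% of the unit's counts with control siRNA without LPS and 85.5 and 86.7% with LPS, where exon bins of replicate 3 were not used here. With SF3a1 siRNA they took 32.5, 42.3 and 42% without LPS and 78.5, 84.0 and 81.3% with LPS. As levels, the summed bins measured 26.6, 28.0 and 27.7 CPM of bin counts with control siRNA without LPS and 202 and 224 CPM with LPS. With SF3a1 siRNA they measured 12, 15.5 and 15.5 CPM without LPS and 92.5, 146 and 125 CPM with LPS. All other bins of the unit together were at 25.2 ± 4.24 (SD, n = 3), 34.3 ± 0.113 (n = 2), 22.5 ± 2.12 (n = 3) and 27.2 ± 1.68 CPM (n = 3) in the same order of groups. Bins next to them also differed with LPS but held few reads, with means of 0.126, 0.0679, 0.469 and 0.631 CPM in bins 2, 5, 6 and 7 with control siRNA without LPS and 1.03, 0.874, 3.34 and 1.58 CPM with LPS.

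The level of each bin was tested with edgeR over 153624 bins, a test added after the counts of this unit had been seen. LPS raised bin 3 by 7.64-fold with control siRNA (log2 2.93, standard error 0.233, adjusted p = 7.40e-07) and 8.71-fold with SF3a1 siRNA (log2 3.12, standard error 0.226, adjusted p = 1.55e-06), where 8.35 and 3.01% of all bins were called higher. Bin 4 rose by 2.99 and 3.04 on the log2 scale. The level test also called bins 2, 5, 6 and 7 higher with control siRNA (8.21-, 10.7-, 6.69- and 2.47-fold) and bins 5, 6 and 25 with SF3a1 siRNA (log2 3.23, 3.24 and 1.10). SF3a1 siRNA left 46.3% of bin 3 without LPS (log2 -1.11, adjusted p = 0.00438) and 52.8% with LPS (log2 -0.92, adjusted p = 0.0197), where 9.77 and 8.89% of all bins were called lower. For bin 4 it left 59.2% (adjusted p = 0.0385) and 61.6% (adjusted p = 0.0768), calls that were lost on leaving out 2 and 6 of the 11 libraries in turn. Bin 7 was called lower too, with 31.8% left without LPS and 25.1% with LPS, and bin 25 without LPS (log2 -0.98). The interaction was 0.19 for bin 3 (standard error 0.312, adjusted p = 0.935) and 0.06 for bin 4 (standard error 0.328, adjusted p = 0.986).

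**Figure D3:**
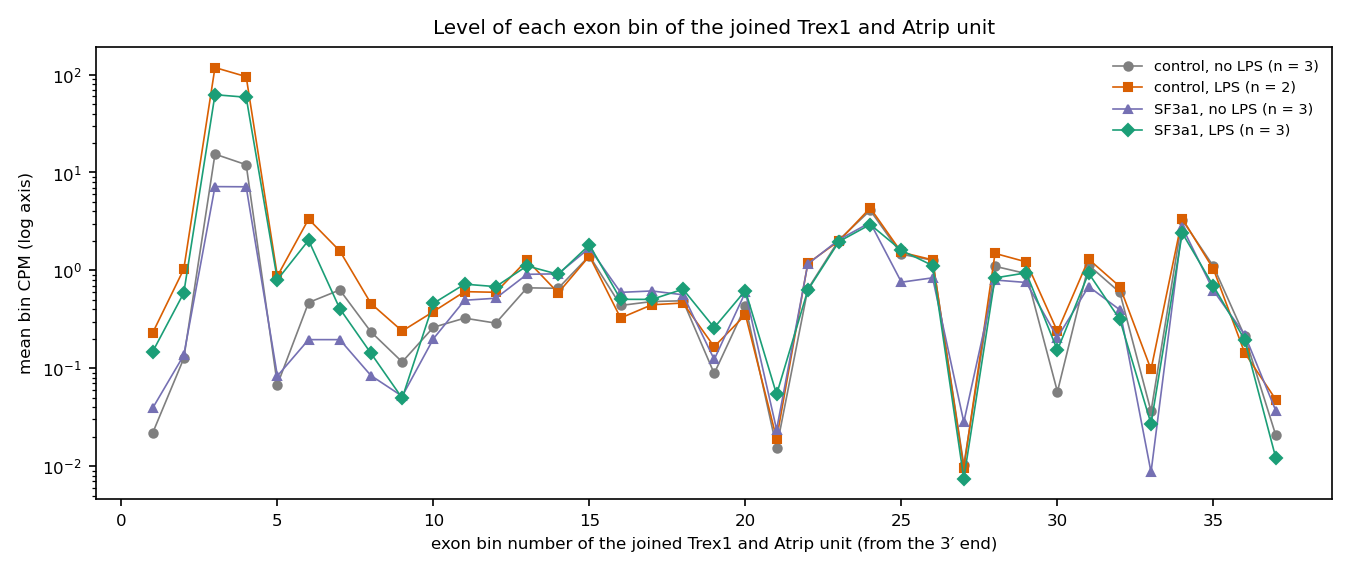
Mean level of each of the 37 exon bins of the joined Trex1 and Atrip unit in the 4 groups, as CPM of bin counts on a log axis, with bins numbered from the 3′ end. Bins 3 and 4 hold the highest levels with LPS, at 118 and 95.3 CPM with control siRNA and LPS against 15.4 and 12 CPM without LPS, the low bins 2, 5, 6 and 7 were also called higher with control siRNA and LPS, and the groups lie together over most bins from 10 on.

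Exon bin usage, the share of a bin within its gene, was tested with edgeR's diffSpliceDGE in 11 libraries. Usage changes from edgeR, here and below, are natural logs and not log2 values. Of the sensor genes and the joined Trex1 and Atrip unit, the joined unit alone had called bins with LPS, where 0.462% of genes had one with control siRNA and 0.104% with SF3a1 siRNA. With control siRNA bins 15, 23, 24, 25, 26, 34 and 35 were used less, by -1.5 to -1.6 on the natural log scale. With SF3a1 siRNA these were bins 15, 22, 23, 24 and 34, by -1.34 to -2.02 on that scale. On leaving out single libraries, the control siRNA values ranged from -2.25 to -1.12 for bin 26 and from -2.03 to -1.2 for bin 35. In the rebuilt annotation the bins from 9 on are exon of Atrip alone, but counted bins were not matched to rebuilt ones. The level test called none of these bins lower with LPS, and usage is relative to the whole unit. With limma voom, whose changes are on the log2 scale, the calls were bins 3 and 4 instead. They were used more by 2.16 and 2.20 with control siRNA and by 2.54 and 2.41 with SF3a1 siRNA. With the replicate number as a block, edgeR called 16 bins of the unit with control siRNA, among them bin 4 (0.56, adjusted p = 0.08), and 15 with SF3a1 siRNA, among them bins 3 and 4 (0.76 and 0.70), where 1.22 and 0.33% of genes had a called bin. Exon bins of 2 libraries with control siRNA and LPS were used here, so leaving out either left a lone library that was assumed to vary like the other groups. Without replicate 2 no bin of this unit was called in the control siRNA comparison, and without replicate 1 only bin 34 was.

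No bin of a sensor gene was called for SF3a1 siRNA, without LPS, where 6.16% of genes had a called bin, or with LPS, where 5.03% had one, and the interaction called 0.0% of genes (1569 genes had an unadjusted p below 0.05 in some bin, and limma voom and the replicate block each called 1 gene). The lowest p of a sensor gene was that of Ddx58 bin 20 without LPS (chr4:40223431-40223797, inside an annotated intron and exon of 1 transcript only). It had 0, 0 and 0 counts with control siRNA and 1, 4 and 3 with SF3a1 siRNA. Its usage change of 3.64 on the natural log scale did not pass the test (adjusted p = 0.130, and 0.0470 without replicate 1 of SF3a1 siRNA). In LPS the same bin had 71 and 14 counts with control siRNA and 38, 9 and 35 with SF3a1 siRNA (natural log usage change 1.04, adjusted p = 1.0). Dhx58 bin 5, also inside an annotated intron (chr11:100696212-100696620) and within the span of Dhx58os, had 68 and 29 counts with control siRNA and LPS and 21, 36 and 55 with SF3a1 siRNA. Its usage change was 1.40 (adjusted p = 0.487, and 0.0183 without replicate 1 of SF3a1 siRNA). With the replicate number as a block, where 11.5% of genes had a called bin, Samhd1 had 3 bins used less with SF3a1 siRNA without LPS: bin 4 (-1.21, adjusted p = 0.0679), bin 5 (-0.82, adjusted p = 0.0794) and bin 31 (-0.42, adjusted p = 0.0986). The same fit called bin 22 of the joined Trex1 and Atrip unit in that comparison.

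The rest of the pathway was followed in 6 lists of 87 genes, of which 84 were tested. LPS with control siRNA raised 37 and lowered 15 of them (13.8% higher and 18.3% lower among all genes tested), and LPS with SF3a1 siRNA raised 25 and lowered 3 (6.6% and 4.06%). SF3a1 siRNA lowered 33 and raised 7 without LPS (20.1% lower and 13.7% higher) and lowered 42 and raised 10 with LPS (20.4% and 18.4%). The median over all genes was -0.02, 0.01, -0.02 and -0.04 in these 4 comparisons. The interaction was called for 9, of which 7 were lower (1.94% of all genes lower and 1.54% higher), and with the replicate number as a block for 32 (6.54% of all genes higher and 5.18% lower under that fit).

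Among 16 tested partners and regulators of the RNA sensors, LPS with control siRNA raised 6 and lowered 1 (all genes 13.8% and 18.3%), and SF3a1 siRNA with LPS lowered 6 and raised 1 (all genes 20.4% and 18.4%). Ddx60, a helicase that cooperates with RIG-I, was at 1.21 ± 0.858 CPM (SD, n = 3) with control siRNA and 77.1 ± 24.5 with LPS, and at 17.4 ± 4.88 with SF3a1 siRNA and LPS (log2 fold change 6.07, adjusted p = 2.67e-06 for LPS, and -2.14, adjusted p = 0.00204 for SF3a1 siRNA). Adar, which edits double-stranded RNA, rose with LPS from 147 ± 16.0 to 731 ± 67.4 CPM (log2 fold change 2.32). SF3a1 siRNA without LPS raised Trim25, a ubiquitin ligase of RIG-I, from 272 ± 24.5 to 520 ± 51.0 CPM (log2 fold change 0.93, adjusted p = 0.00359). Prkra, an activator of PKR, was higher with SF3a1 siRNA in LPS (7.55 ± 0.847 against 15.9 ± 3.11 CPM, log2 fold change 1.07, adjusted p = 0.00171), and Zc3hav1, an antiviral RNA-binding protein, was lower (420 ± 54.6 against 216 ± 52.5 CPM, log2 fold change -0.96). Without LPS, SF3a1 siRNA also raised Nlrx1, an inhibitor of MAVS (0.59), and lowered Dhx36 (-0.58), a helicase. Counts for the list were 4 higher and 0 lower for LPS with SF3a1 siRNA (all genes 6.6% and 4.06%) and 2 higher and 1 lower for SF3a1 siRNA without LPS, where all genes gave 13.7% and 20.1%. Blocked by replicate number, the last comparison called 5 higher and 3 lower (all genes 20.7% and 26.3% in the blocked fit), and SF3a1 siRNA with LPS 4 higher and 6 lower (24.6% and 26.3%). The same fit called 6 higher and 3 lower for LPS with control siRNA. For LPS with SF3a1 siRNA it called 4 higher and 2 lower (all genes 11.3% and 9.48%).

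Of the 18 DNA sensors and STING regulators, LPS with control siRNA raised 8 and lowered 6 (all genes 13.8% and 18.3%), and SF3a1 siRNA lowered 10 and raised 2 in each condition (all genes 20.1% and 13.7% without LPS, 20.4% and 18.4% with LPS). Genes of the interferon-inducible p200 family had the largest log2 fold changes of the list in both of these comparisons with LPS present. Ifi204 rose from 3.29 ± 0.714 to 242 ± 74.0 CPM with LPS and reached 37.9 ± 7.22 CPM with SF3a1 siRNA and LPS (log2 fold change 6.21 for LPS and -2.67, adjusted p = 1.45e-05, for SF3a1 siRNA). Ifi205 (14.1 ± 2.56 against 2.32 ± 0.857 CPM in LPS, log2 fold change -2.62) and Ifi203 (255 ± 37.5 against 58.1 ± 5.27 CPM, log2 fold change -2.13) were lower with SF3a1 siRNA too, and members of this family share sequence, so single counts may be uncertain. The gene of the DNA sensor cGAS (Mb21d1, now named Cgas) rose with LPS (log2 fold change 0.97, adjusted p = 0.00325) and fell with SF3a1 siRNA without LPS (-0.73, adjusted p = 0.0178) and with LPS (-0.74, adjusted p = 0.0143), and it was chosen for mention after its values were seen. Without LPS, SF3a1 siRNA lowered Rnf5, a ubiquitin ligase of STING (46.6 ± 8.80 to 21.0 ± 6.88 CPM, log2 fold change -1.15), Xrcc6, the Ku70 subunit (-1.11), and Ifi203 (-1.09). LPS with SF3a1 siRNA raised 5 and lowered 2 of the list (all genes 6.6% and 4.06%).

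Of 17 adaptors, kinases and IRFs below the sensors, LPS with control siRNA raised 8 and lowered 1 (all genes 13.8% and 18.3%) and SF3a1 siRNA with LPS lowered 10 and raised 2 (all genes 20.4% and 18.4%). Irf7, the transcription factor that amplifies interferon, rose from 27.9 ± 9.94 to 1180 ± 495 CPM with LPS and was at 217 ± 138 CPM with SF3a1 siRNA and LPS (log2 fold change -2.44, adjusted p = 0.00114). Ikbke, a kinase related to TBK1, was at 275 ± 50.8 against 70.8 ± 24.8 CPM (-1.96), and Mlkl, which carries out necroptosis, at 91.7 ± 30.7 against 17.4 ± 6.14 CPM (-2.39). Mlkl was lower with SF3a1 siRNA without LPS as well (-0.97, adjusted p = 0.0362), as were the death domain adaptors Fadd (-1.21) and Tradd (-0.97). LPS with SF3a1 siRNA raised 6 and lowered 0 (all genes 6.6% and 4.06%), and SF3a1 siRNA without LPS lowered 5 and raised 0 (all genes 20.1% and 13.7%). The blocked fit lowered 7 and raised 3 in the latter, with 26.3% of all genes lower and 20.7% higher.

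Of 7 nucleases and nucleotide enzymes tested, SF3a1 siRNA without LPS lowered 6 and raised 0, where all genes gave 20.1% lower and 13.7% higher. All 3 subunits of ribonuclease H2, which clears RNA paired with DNA, were lower: Rnaseh2c (41.2 ± 3.05 to 12.6 ± 0.995 CPM, log2 fold change -1.70, adjusted p = 8.75e-05), Rnaseh2b (-1.54) and Rnaseh2a (-1.34). With LPS SF3a1 siRNA lowered 5 and raised 1 (all genes 20.4% and 18.4%), led by Pnpt1, the mitochondrial polynucleotide phosphorylase (229 ± 36.3 against 50.8 ± 6.91 CPM, log2 fold change -2.17), and Xrn1, the 5′ to 3′ exoribonuclease (-1.88). LPS with control siRNA raised Pnpt1 (1.65) and Xrn1 (1.17) and lowered Dnase2a, the lysosomal DNase (-1.33), among 2 higher and 3 lower (all genes 13.8% and 18.3%), and LPS with SF3a1 siRNA raised 1 and lowered 0 (all genes 6.6% and 4.06%), and 1 and 1 in the blocked fit (11.3% and 9.48%).

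PKR is one of several kinases of eIF2α. Of 15 tested genes of that pathway, which are other eIF2α kinases, eIF2 and eIF2B subunits, phosphatase subunits and the factors Atf4 and Ddit3, LPS with control siRNA raised 5 and lowered 3 (all genes 13.8% and 18.3%) and LPS with SF3a1 siRNA raised 2 and lowered 1 (all genes 6.6% and 4.06%). SF3a1 siRNA lowered 6 and raised 2 without LPS (all genes 20.1% and 13.7%) and lowered 4 and raised 3 with LPS, close to the 20.4% and 18.4% of all genes. In the blocked fit LPS with SF3a1 siRNA raised 7 and lowered 2 (all genes 11.3% and 9.48%), and SF3a1 siRNA lowered 7 and raised 4 without LPS (26.3% and 20.7%) and lowered 8 and raised 4 with LPS (26.3% and 24.6%). Ppp1r15a, the phosphatase subunit GADD34, rose with LPS (15.4 ± 4.04 to 62.1 ± 5.58 CPM, log2 fold change 2.00) and with SF3a1 siRNA without LPS (to 30.6 ± 5.56 CPM, 0.98). Ddit3, the transcription factor CHOP, also rose with SF3a1 siRNA without LPS (6.47 ± 0.489 to 16.8 ± 1.14 CPM, 1.37). Eif2s2 (-0.80), Eif2ak1 (-0.78) and Eif2b5 (-0.71) were the largest decreases with SF3a1 siRNA in LPS.

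Of 11 tested genes of the type I interferon loop, LPS raised 8 and lowered 1 with control siRNA (median log2 fold change 3.62, all genes -0.02, with 13.8% higher and 18.3% lower) and raised 7 and lowered 0 with SF3a1 siRNA (median 2.39, all genes 6.6% and 4.06%). SF3a1 siRNA lowered 5 and raised 1 without LPS (all genes 20.1% and 13.7%) and lowered 7 and raised 1 with LPS (median -1.57, all genes 20.4% and 18.4%). Ifnb1, the interferon β gene, measured 4.92, 27.5 and 26.0 CPM with control siRNA and LPS and 0.636, 5.02 and 3.66 CPM with SF3a1 siRNA and LPS, and replicate 1 was low in both groups (log2 fold change -2.67, standard error 0.736, adjusted p = 0.0186). Without LPS it had 2 reads over the 3 control libraries. The LPS ratio of reads pooled over libraries was 569, with an exact 95% counting interval of 157 to 4700, and 1080 (193 to 42700) without replicate 1. These intervals cover counting error only and leave out the spread between libraries. Ifnb1 had 0 reads over the 3 SF3a1 libraries without LPS, so LPS raised it at least 45.9-fold there, taking 3 counts in that group as the floor. Stat2 (411 ± 34.9 against 89.5 ± 16.5 CPM, -2.20, adjusted p = 5.19e-06) and Usp18, an inhibitor of the receptor (1340 ± 217 against 321 ± 39.0 CPM, -2.06), were lower with SF3a1 siRNA in LPS. Isg15, an interferon-induced modifier, rose with LPS from 4.02 ± 1.51 to 1030 ± 109 CPM with control siRNA (8.02) and from 2.64 ± 0.463 to 345 ± 17.2 CPM with SF3a1 siRNA (7.03). Without LPS, SF3a1 siRNA lowered Tyk2 (-0.86) and Stat2 (-0.80) and raised Jak1 (0.65), kinases and a factor of the receptor's signal.

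**Figure D4:**
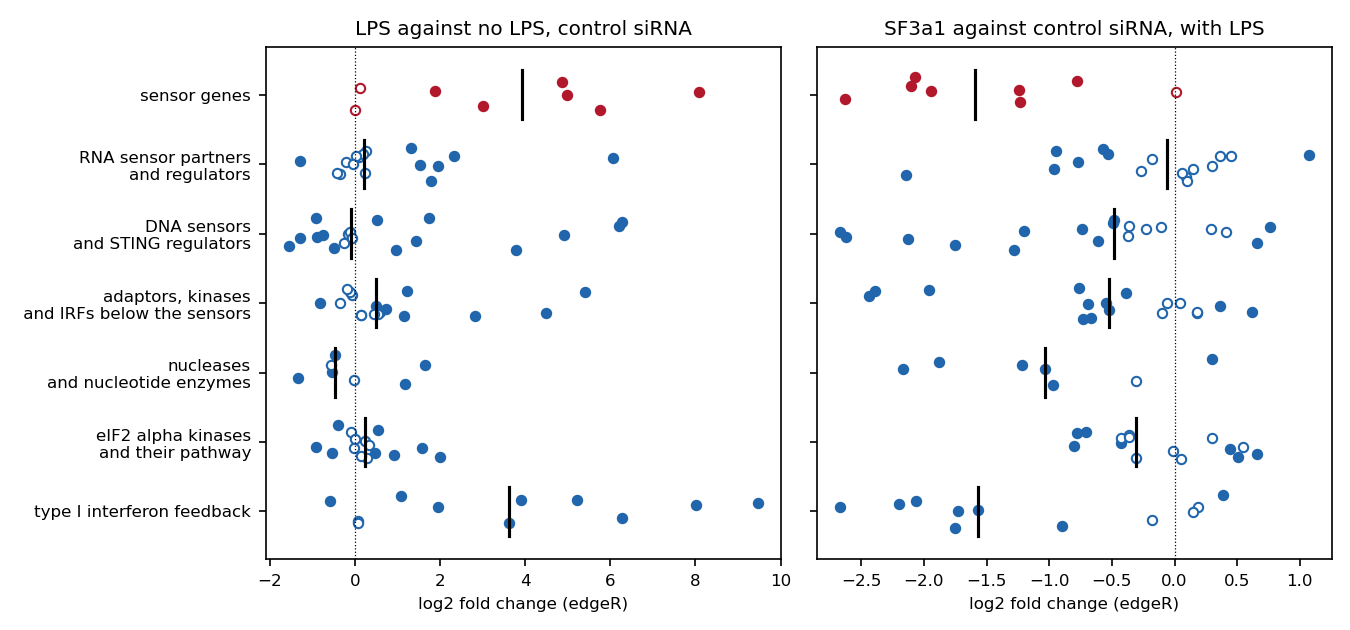
Log2 fold change of the sensor genes and of each tested gene of the 6 pathway lists, for LPS with control siRNA (left) and for SF3a1 siRNA with LPS (right). Filled points are called, open points are not, and the bar is the list's median, which is 3.94 and -1.59 for the sensor genes and 3.62 and -1.57 for the interferon list.

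The genes whose pattern over the 12 libraries lay nearest to each sensor were found among 9296 genes averaging 10 CPM or more, by the root mean square difference of log2 CPM centred on each gene's mean. Ddx58 was nearest to Parp14 (0.283 log2 units), Trim30a (0.287) and Ifi44 (0.305), where the median gene differed by 2.3. Dhx58 was nearest to Ifi44 (0.347), Irf7 (0.379) and Phf11d (0.389), and Ifih1 to Il4i1 (0.387), Irgm2 (0.404) and Ddx60 (0.473). Eif2ak2 was nearest to Sp110 (0.251), Oas3 (0.276) and Znfx1 (0.278), Zbp1 to Hdc (0.726), Ifit3 (0.801) and Cd40 (0.817), and Samhd1 to Stat3 (0.2), Slc25a22 (0.278) and Casp1 (0.278). Mavs lay nearest to Clcn7 (0.0785), Rbsn (0.0836) and Slc1a5 (0.0959), and Tmem173 to Sharpin (0.174), Gnptg (0.182) and Limk2 (0.188). The median gene differed by 0.417 from Mavs, 0.534 from Tmem173, 0.915 from Samhd1 and 1.34 from Eif2ak2. It differed by 2.33 from Dhx58, 2.68 from Ifih1 and 3.88 from Zbp1, so distances of different sensors are not on 1 footing.

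Reads outside annotated genes made up 17.8 to 19.8% in the control siRNA libraries and 18.2 to 27.2% in the SF3a1 siRNA libraries, with the highest share in replicate 1 of SF3a1 siRNA without LPS, the library with the lowest Zbp1 level. Their part in the differences was not tested. With 3 libraries on each side the smallest two-sided p of an exact permutation test is 0.1, and each comparison of a sensor gene whose groups did not overlap reached that value, so the calls rest on edgeR's model over all genes.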

How the data were processed

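Polyadenylated RNA of the 12 samples was sequenced on an Ion Proton. Per the labels, the authors aligned reads with GSNAP to mm10 and counted them with HTSeq. They deposited whole-number read counts per gene for 12 libraries and per exon bin for the 11 libraries used here at that level. Groups were taken from the sample labels. Counts were fitted with edgeR 4.0.16 (quasi-likelihood, TMM scaling, filterByExpr, 1 mean per group, all libraries together) in R 4.3.3, and exon bins with diffSpliceDGE, with Benjamini-Hochberg adjustment and calls at an adjusted p of 0.1. The fit was tested on simulated counts without any effect shared by replicate number, so that test does not cover such an effect. DESeq2 1.42.0 and limma 3.58.1 were alternatives, as were RLE scaling, no filter, a replicate block, only the groups compared and leaving out single libraries. Single library values are CPM after TMM scaling.

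Samples with the same replicate number deviated together. All 18 such pairs across groups had a correlation of deviations from the group means of 0.13 to 0.55 (median 0.305). The 36 other pairs had -0.47 to 0.3 (median -0.285), negative wherever 1 library was replicate 1 and positive between replicates 2 and 3. Replicate 3 of control siRNA without LPS had 0.3 with replicate 2 of SF3a1 siRNA and LPS and 0.13 with replicate 3. The values thus set replicate 1 apart and hardly pair replicates 2 and 3. The main fit did not use the numbers. Pairing by number entered only the replicate block and the ratios given by replicate. Replicate counts differed by more than sampling noise (chi-square per degree of freedom 9.43 to 127), so none were merged. Reads outside genes were left out of library sizes, at 17.8 to 27.2% of a library, and reads on more than 1 gene made up 0.431 to 0.53%. Counting error grows at low depth, and the smallest library held 12746019 reads on genes.

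The members, the pathway lists and the tests were chosen with earlier results of these data known. In each pathway list, up to 3 called genes with the largest log2 fold change and a mean of at least 1 CPM are named per comparison, and for each sensor gene the 3 genes of at least 10 CPM with the nearest pattern. Rnf125, Enpp1 and Ifna4 did not pass the filter on low counts. Values of some genes that enter the list counts are not reported here, nor is 1 marker list.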

Additional observations from a re-analysis of the deposited data

Results flagged for a closer look

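The effect of SF3a1 siRNA differed with and without LPS, by the interaction test of edgeR's quasi-likelihood fit at an adjusted p of 0.1, for 2 sensor genes, Ddx58 (log2 difference -1.47) and Eif2ak2 (-1.27). Of the pathway lists it differed, with the lower log2 fold change in LPS, for Rnf135 (-1.19), Ifi204 (-2.14), Mndal (-1.07), Irf7 (-2.30), Pnpt1 (-0.86) and Stat2 (-1.40). Rnf135 turned in sign, from 0.42 without LPS, which did not pass the test, to -0.77 with LPS. The difference had the other sign for Nlrc3 (1.13) and Dnase2a (0.98). Both of these turned in sign too, Nlrc3 from -0.48 without LPS to 0.66 with LPS and Dnase2a from -0.68 to 0.3. Each of these values passed the test. Groups of 3 were too small for a check of single samples.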

How the results depend on the processing

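Calls of the sensor genes for LPS with control siRNA and for SF3a1 siRNA with LPS held without each library in turn. Counts of the other comparisons moved more. The sensor genes called were 1 with RLE scaling for SF3a1 siRNA without LPS. For the interaction they were 6 without a filter, 5 with DESeq2, 5 with the replicate block and 6 without the replicate 1 libraries, an alternative chosen after seeing the data. The pathway genes called for the interaction were 20, 22, 32 and 20 under the same alternatives, and all genes called were 930, 965, 1756 and 1012. LPS with SF3a1 siRNA called 3115 genes with the replicate block.

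With the replicate block, genes with a called exon bin were 129 and 35 for LPS with control and SF3a1 siRNA, 1217 and 1102 for SF3a1 siRNA without and with LPS and 1 for the interaction. A minimum of 20 counts gave 424 for SF3a1 siRNA without LPS, limma voom gave 1 for the interaction, and 2 sensor genes had a called bin for SF3a1 siRNA without LPS with the block.

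Leaving out 1 library at a time, genes called ranged from 1050 to 2005 for LPS with SF3a1 siRNA and from 273 to 711 for the interaction. Genes with a called bin ranged from 23 to 60 and 7 to 13 for LPS with control and SF3a1 siRNA, from 382 to 768 and 83 to 603 for SF3a1 siRNA without and with LPS and from 0 to 3 for the interaction. Pathway genes called for the interaction ranged from 4 to 15, and sensor genes called from 0 to 4 for it, from 5 to 6 for LPS with SF3a1 siRNA and from 0 to 2 for SF3a1 siRNA without LPS. Sensor genes with a called bin ranged from 0 to 1 for LPS with control siRNA and for SF3a1 siRNA in both conditions.

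Signs turned only for values that were not called. Mavs with LPS and control siRNA had a log2 fold change of -0.01 without a filter, -0.0040 with the block and -0.11 without the replicate 1 libraries, Eif2ak2 with SF3a1 siRNA without LPS had -0.06 without those libraries, Samhd1 there had 0.04 with RLE scaling and with DESeq2, and the interaction of bin 4 was -0.0031 with the block. Over single left-out libraries the ranges were -0.02 to 0.38 for Sf3a1 (LPS with SF3a1 siRNA), -0.17 to 0.11, -0.24 to 0.02 and -0.10 to 0.19 for Mavs (LPS with control siRNA, SF3a1 siRNA without and with LPS), -0.01 to 0.30 for Tmem173 (LPS with control siRNA), and -1.31 to 0.16, -0.02 to 0.23 and -0.17 to 0.21 for Zbp1, Eif2ak2 and Samhd1 (SF3a1 siRNA without LPS), and -0.1 to 0.28 for the interaction of bin 4. The cause of these changes was not tested.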
